A study of Mus musculus with 16 samples.

Results

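The autophagy and lysosome genes described here are 10 genes of the mouse liver transcriptome, chosen by name and found by matching the Ensembl gene IDs of the deposited table to gene symbols. All 10 were found among 55487 genes in the table, and all 10 had a mean level of at least 1 TPM (a transcript abundance unit in which reads are divided by exon length and every library is scaled to the same total), which left 11839 genes for testing. They are Tfeb, Ulk1, Becn1, Atg7, Map1lc3a, Map1lc3b, Gabarapl1, Sqstm1, Lamp1 and Ctsl.

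RNA came from the livers of 16 male C57BL6/J mice, 1 library per mouse and 4 mice per group. The mice were made obese with a high-fat diet, which the sample records describe as started at 10 weeks of age and kept for 8 weeks. They were moved to a high-fat diet of standard (SP) or high (HP) protein content, per the study's methods 2 weeks before treatment. On these diets they were given vehicle or G108, a long-acting glucagon receptor agonist. Treatment was under the skin each day for 22 days, with G108 at 2.5 nmol/kg. The 4 groups were 2 given vehicle (Vehicle SP, Vehicle HP) and 2 given the agonist (G108 SP, G108 HP), all on a high-fat diet, all sampled after a 4 h fast, and none lean or drug-naive on chow. The study's methods give another starting age, another length of high-fat feeding and another day of cull than the sample records do.

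Autophagy encloses part of the cytoplasm in a double membrane, the autophagosome, which fuses with the lysosome so that its contents are degraded. Ulk1 kinase starts the process, the Becn1 lipid kinase complex marks the membrane, and Atg7 drives the attachment of Atg8-like proteins (the Map1lc3 and Gabarap families) to it. In liver, fasting and glucagon have long been known to induce autophagy and insulin and amino acids to restrain it, much of which is exerted on proteins and not on transcript levels.

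Each gene was compared on log2(TPM + 1) with limma in 1 model of all 16 libraries, with Benjamini-Hochberg adjustment over the 11839 genes and a call at an adjusted p under 0.05. TPM are shares of a library, and the deposited values of every library sum to 1000000. The TPM of the middle gene moved between groups. With G108 against vehicle, the log2 fold change of the middle gene was 0.60 on SP and 0.09 on HP, and for HP against SP it was -0.35 with G108 and 0.14 with vehicle. Median-of-ratios scaling, which sets the middle gene of every library to the same level, brought these medians to between -0.01 and 0.01. Every comparison is therefore given both on TPM as deposited and after this scaling ("scaled TPM"). Reads assigned per library, recovered from the steps of low TPM values, numbered 33.4 to 45.03 M (mega) in Vehicle SP, 34.5 to 44.1 M in Vehicle HP, 27.8 to 35.9 M in G108 SP and 30.5 to 36.5 M in G108 HP. The 37 mitochondrial-genome genes took up group medians of 16.1%, 17.5%, 19.0% and 24.2% of TPM in the same order. Mouse 4 of Vehicle SP stood apart, with a median correlation of 0.937 with its own group, where the other 15 libraries had 0.968 to 0.985. It had the lowest TPM of all 16 mice for 7 of the 10 genes, and after scaling it was the lowest for 6 and the highest for 3, namely Tfeb, Ulk1 and Becn1. The change of each of the 10 with G108 on SP after scaling is therefore also given without this mouse.

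The tissue label was checked against marker genes. The 6 hepatocyte markers summed to 27188 to 41258 scaled TPM over all mice, while 4 of 4 cholangiocyte markers and 5 of 5 lymphocyte markers had a mean TPM under 1. The 8 markers of Kupffer cells and macrophages, cells rich in lysosomes, summed to 45.9 to 57.9 scaled TPM in Vehicle SP, 46.9 to 56.7 in Vehicle HP, 25.1 to 72.5 in G108 SP and 32.5 to 82.2 in G108 HP. Of the 7 of them tested, 0 were called in any of the comparisons by limma, on TPM as deposited or scaled. For G108 against vehicle on SP, 0 and 1 had an unadjusted p under 0.05, beside 79.8% and 17.7% of all genes. Of the 4 endothelial markers tested, limma called 0 after scaling, but 3 had an unadjusted p under 0.05 for G108 against vehicle on SP (17.7% of all genes). The median log2 fold change of the 4 was -0.28 after scaling. On TPM as deposited it was 0.32, beside 0.60 for all genes, and limma called 2 of the 4 higher (77% of all genes). The 5 endothelial markers summed to 17.9 to 20.9 scaled TPM in Vehicle SP and to 14.02 to 15.9 in G108 SP, without overlap. Of all single genes, 4.69% were lower with G108 on SP without overlap. Of the 5 red blood cell markers, limma likewise called 0 after scaling, and 3 had an unadjusted p under 0.05 on SP (17.7% of all genes). Their median log2 fold change on SP was -0.22 after scaling and 0.55 as deposited, where limma called 1 of the 5 higher. The sums of the 5 overlapped, at 843 to 3094 scaled TPM in Vehicle SP and 656 to 919 in G108 SP. Without mouse 4 of Vehicle SP, the scaled counts at an unadjusted p under 0.05 were 2 endothelial and 1 red blood cell marker (13.7% of all genes). The part of these cells in the results was not tested. In bulk liver, fewer cells of a type and less RNA per cell cannot be told apart.

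On SP, all 10 autophagy and lysosome genes had higher TPM with G108 than with vehicle, and all 10 were called higher. Their log2 fold changes ranged from 0.47 for Tfeb to 1.47 for Ctsl, with a median of 0.95. Of all genes tested, 77% were called higher in this comparison, and all mice of G108 SP lay above all of Vehicle SP for 8 of the 10, as for 56% of all genes. Without mouse 4 of Vehicle SP all 10 were again called higher (72.2% of all genes), from 0.46 for Atg7 to 1.09 for Ctsl, and the log2 fold changes of Lamp1 and Gabarapl1 fell from 1.13 and 1.15 to 0.73 and 0.76. After median-of-ratios scaling, limma called 0 of the 10 (2.72% of all genes were called), and 1, Ctsl, had an unadjusted p under 0.05, as had 17.7% of all genes. limma-voom on the recovered reads also called 0 (2.96% of all genes), again with 1 at an unadjusted p under 0.05. The scaled log2 fold changes ran from -0.066 to 0.71 with a median of 0.23, and 7 of 10 were above 0, as were 48.7% of all genes. The rise in TPM was thus shared with most of the transcriptome, and what exceeded it passed no test over all genes.

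**Figure D1:**
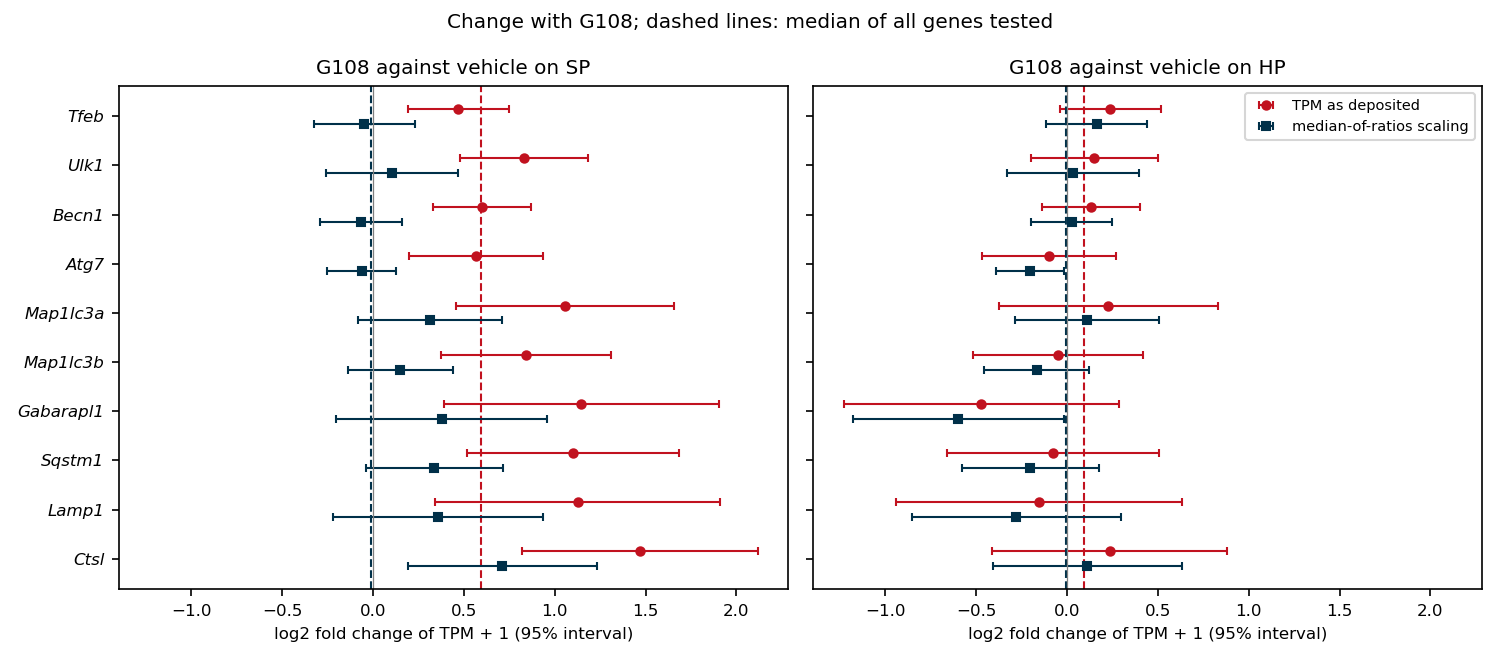
Log2 fold change of TPM + 1 with G108 against vehicle on SP (left) and on HP (right) for the 10 genes, from TPM as deposited (circles) and after median-of-ratios scaling (squares), with 95% intervals from limma. Dashed lines mark the median of all 11839 genes tested. On SP the deposited values lie around or above a median of 0.60 and the scaled intervals span 0 except that of Ctsl, and on HP both sets span 0 except the scaled intervals of Atg7 and Gabarapl1, which lie below it.

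Tfeb encodes a transcription factor that switches on lysosomal and autophagy genes. It was the lowest of the 10, with TPM of 1.32, 1.74, 1.20 and 1.85 in the 4 Vehicle SP mice, 1.64, 1.86, 1.30 and 1.37 in Vehicle HP, 1.96, 2.50, 3.02 and 2.52 in G108 SP and 1.53, 1.92, 2.12 and 2.45 in G108 HP. Every G108 SP mouse was above every Vehicle SP mouse, and the log2 fold change of 0.47 (SE 0.13; limma, adjusted p = 0.00571) was below that of the middle gene. After scaling it was -0.047 (95% interval -0.32 to 0.23; limma, adjusted p = 0.852), and 0.072 without mouse 4 of Vehicle SP, with groups that overlapped at 1.34 to 2.72 scaled TPM with vehicle and 1.68 to 1.96 with G108. TFEB is controlled largely by its place in the cell, which RNA levels do not report.

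Ulk1 encodes the kinase that starts autophagosome formation. Its TPM were 9.00, 12.9, 8.71 and 13.5 in Vehicle SP, 10.8, 12.6, 10.4 and 12.5 in Vehicle HP, 21.5, 18.4, 23.4 and 17.5 in G108 SP and 12.2, 14.2, 10.4 and 15.4 in G108 HP. The G108 SP mice stood above all 12 other mice, with a log2 fold change over Vehicle SP of 0.83 (SE 0.16; limma, adjusted p = 0.00127). The scaled change was 0.10 (95% interval -0.26 to 0.47; limma, adjusted p = 0.747), and 0.28 without mouse 4 of Vehicle SP, whose 19.9 scaled TPM was the highest of all 16.

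Becn1, a subunit of the class III phosphatidylinositol 3-kinase complex that nucleates the membrane, measured 3.90, 5.12, 4.52 and 5.43 TPM in Vehicle SP, 5.195, 6.24, 5.07 and 4.72 in Vehicle HP, 6.79, 7.08, 8.35 and 8.59 in G108 SP and 6.02, 5.63, 5.17 and 6.80 in G108 HP. Vehicle and G108 did not overlap on SP (log2 fold change 0.60, SE 0.13; limma, adjusted p = 0.00164), a change equal to that of the middle gene to 2 decimals. After scaling the difference was -0.066 (95% interval -0.29 to 0.16), so a scaled change above 0.16 lies outside the interval, and it was 0.059 without mouse 4 of Vehicle SP. Its annotated exons share 3104 bases with Cntd1, which lies on the opposite strand and had a mean of 5.60 TPM. Whether reads were counted by strand is not given in the sources used here, so the levels of Becn1 and Cntd1 cannot be fully told apart.

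Atg7 encodes the E1-like enzyme that activates Atg8 proteins and Atg12. It measured 2.93, 4.66, 4.14 and 2.58 TPM in Vehicle SP, 3.70, 5.06, 5.07 and 4.20 in Vehicle HP, 4.56, 5.86, 6.91 and 5.50 in G108 SP and 4.27, 3.59, 3.31 and 5.58 in G108 HP. The SP groups overlapped, since 1 vehicle mouse at 4.66 was above the lowest G108 mouse at 4.56. The log2 fold change was 0.57 (SE 0.17; limma, adjusted p = 0.00934), and -0.062 after scaling (95% interval -0.25 to 0.13). The scaled change was -0.12 without mouse 4 of Vehicle SP.

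**Figure D2:**
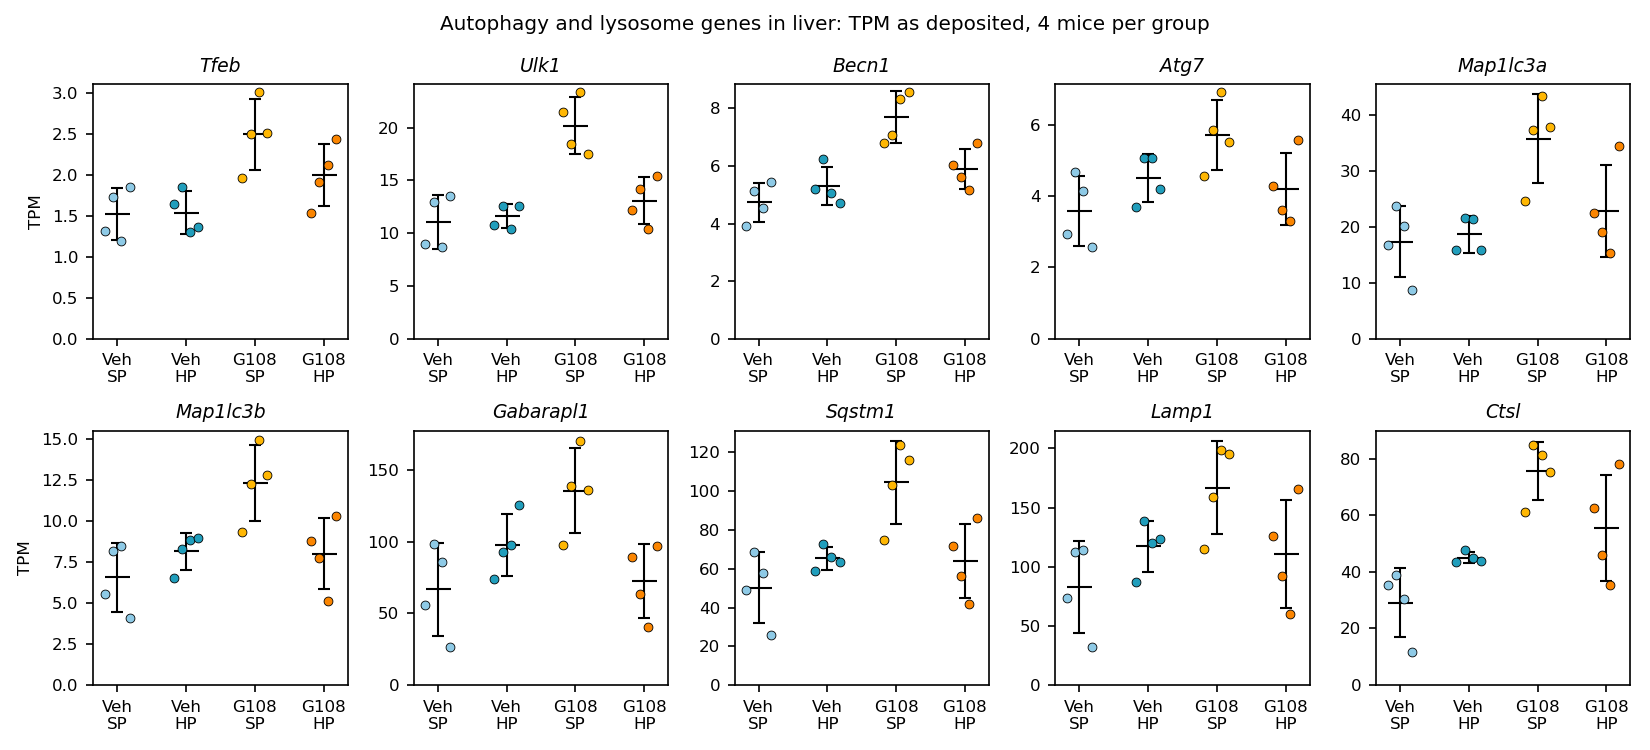
TPM as deposited of each of the 10 genes in the 16 mice (points), with the group mean and SD (bars; 4 mice per group) by treatment and diet. Each vertical axis starts at 0 and has its own scale. G108 SP has the highest mean for every gene, and mouse 4 of Vehicle SP is the lowest point for 7 of them.

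Map1lc3a and Map1lc3b encode LC3A and LC3B, Atg8-like proteins that are coupled to lipid on the autophagosome membrane. Map1lc3a measured 16.8, 23.7, 20.2 and 8.77 TPM in Vehicle SP, 15.8, 21.7, 21.5 and 15.9 in Vehicle HP, 24.7, 37.4, 43.4 and 37.9 in G108 SP and 22.4, 19.1, 15.2 and 34.5 in G108 HP. Its SP groups did not overlap, and G108 raised it by a log2 of 1.06 (SE 0.28; limma, adjusted p = 0.00475). Scaled, the difference was 0.31 (95% interval -0.082 to 0.71; limma, adjusted p = 0.381) with overlapping groups, and 0.10 without mouse 4 of Vehicle SP. Map1lc3b was lower, at 5.57, 8.16, 8.47 and 4.11 TPM in Vehicle SP, 6.51, 8.28, 8.83 and 9.00 in Vehicle HP, 9.31, 12.2, 14.96 and 12.8 in G108 SP and 8.79, 7.78, 5.14 and 10.3 in G108 HP. On SP it was called higher without overlap (log2 fold change 0.84, SE 0.22; limma, adjusted p = 0.00418), and after scaling the change was 0.15 (95% interval -0.14 to 0.44) and the groups overlapped. Without mouse 4 of Vehicle SP the scaled change of Map1lc3b was 0.034.

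Gabarapl1, an Atg8-like protein of the GABARAP branch, was one of the highest of the 10 in TPM and one of the most variable. Its TPM were 55.8, 98.7, 86.1 and 26.4 in Vehicle SP, 73.9, 92.9, 98.1 and 126 in Vehicle HP, 97.6, 139, 170.4 and 136 in G108 SP and 89.2, 63.8, 40.7 and 97.1 in G108 HP. The SP groups met at 98.7 TPM with vehicle and 97.6 with G108, and the log2 fold change was 1.15 (SE 0.36; limma, adjusted p = 0.00985). The scaled change of 0.38 (95% interval -0.20 to 0.96) fell to 0.069 without mouse 4 of Vehicle SP. Its exons overlap 570 bases of a gene on the other strand, 1700101I11Rik, at a mean of 17.5 TPM.

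Sqstm1 encodes p62, a receptor that ties ubiquitin-tagged cargo to the Atg8-like proteins and is itself degraded with the cargo. Its TPM were 49.1, 68.7, 57.7 and 25.6 in Vehicle SP, 59.0, 73.0, 66.2 and 63.6 in Vehicle HP, 75.0, 103, 124 and 116 in G108 SP and 71.8, 56.4, 41.6 and 86.2 in G108 HP. All 4 G108 SP mice lay above all 4 Vehicle SP mice (log2 fold change 1.10, SE 0.27; limma, adjusted p = 0.00342). In scaled TPM, the mice measured 71.0, 71.3, 64.8 and 37.7 with vehicle and 64.0, 78.1, 80.8 and 79.1 with G108, and the lowest G108 mouse was below 3 of the 4 vehicle mice. The scaled change was 0.34 (95% interval -0.041 to 0.71; limma, adjusted p = 0.327), and 0.12 without mouse 4 of Vehicle SP.

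Lamp1, a heavily glycosylated protein of the lysosomal membrane, had the highest mean of the 10. It measured 73.6, 113, 114 and 31.9 TPM in Vehicle SP, 86.7, 139, 119.9 and 123 in Vehicle HP, 115, 159, 199 and 195 in G108 SP and 126, 92.3, 59.7 and 166 in G108 HP. The SP groups were separated by little, from 114 TPM in the highest vehicle mouse to 115 in the lowest G108 mouse, and the log2 fold change was 1.13 (SE 0.37; limma, adjusted p = 0.0130). The scaled change of 0.36 (95% interval -0.22 to 0.93) fell to 0.030 without mouse 4 of Vehicle SP.

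Ctsl encodes cathepsin L, a cysteine protease of the lysosome, and had the largest change of the 10 on SP on both scales. Its TPM were 35.5, 38.8, 30.6 and 11.6 in Vehicle SP, 43.5, 47.8, 44.9 and 43.9 in Vehicle HP, 61.4, 84.9, 81.5 and 75.3 in G108 SP and 62.5, 46.0, 35.3 and 78.1 in G108 HP. G108 and vehicle were far apart on SP (log2 fold change 1.47, SE 0.31; limma, adjusted p = 0.00158). Scaled, the Vehicle SP mice measured 51.3, 40.3, 34.3 and 17.0 and the G108 SP mice 52.4, 64.3, 53.0 and 51.4, so the groups still did not overlap, although the gap between 51.3 and 51.4 was small. Ctsl was the only 1 of the 10 with that pattern after scaling, which 4.52% of all genes shared. The scaled change was 0.71 (SE 0.24, 95% interval 0.19 to 1.23; limma, adjusted p = 0.150). It was 0.91 (limma, adjusted p = 0.0445) without mouse 1 of Vehicle SP and 0.40 (limma, adjusted p = 0.243) without mouse 4. A call after scaling appeared in 1 of the 16 fits that each left out 1 library.

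**Figure D3:**
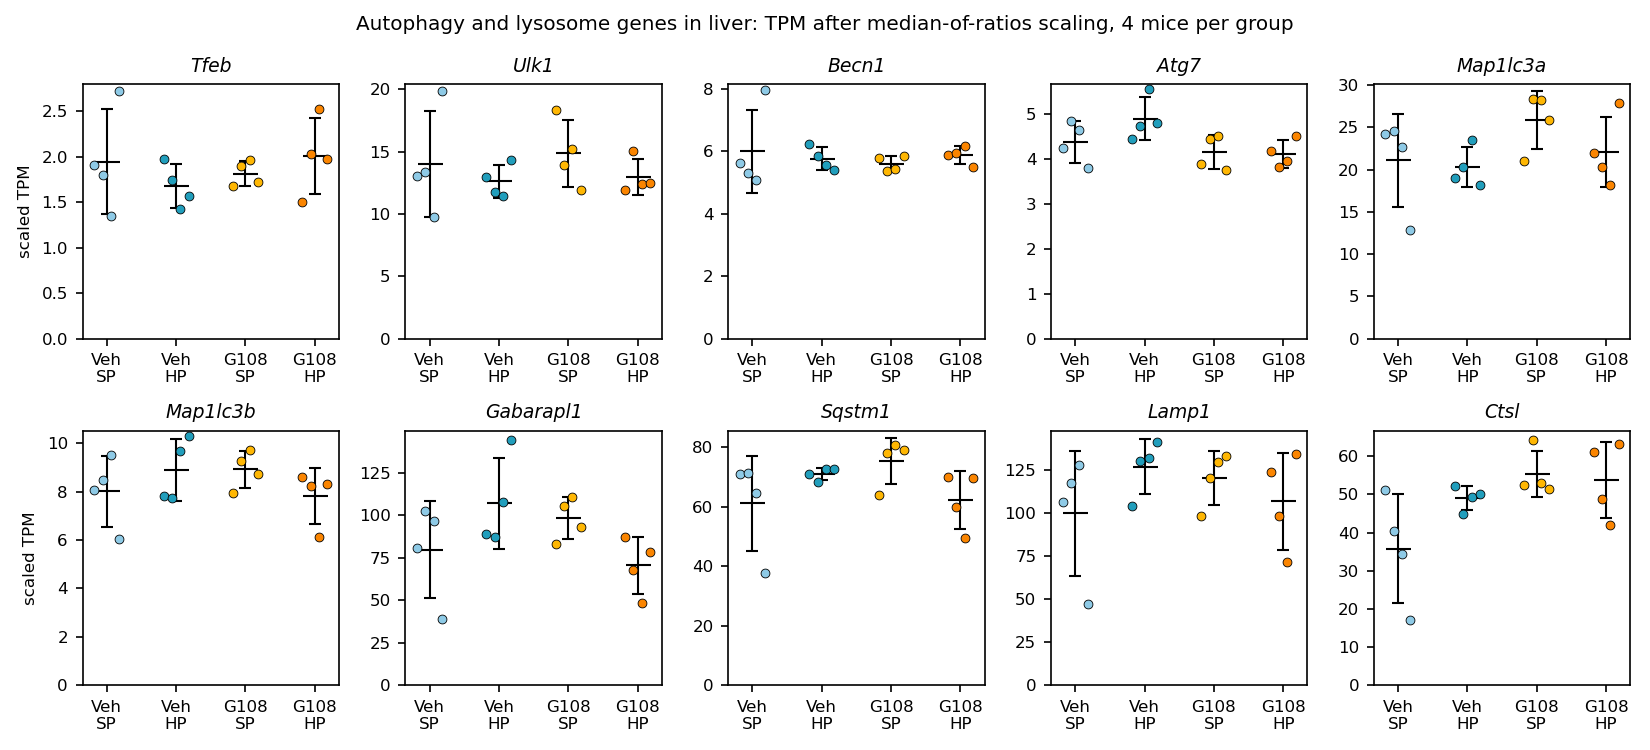
The same 16 mice after median-of-ratios scaling, in scaled TPM, with the group mean and SD (4 mice per group). The groups overlap on SP for 9 of the 10 genes, and mouse 4 of Vehicle SP is the lowest point for 6 and the highest for Tfeb, Ulk1 and Becn1.

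On HP, G108 and vehicle overlapped for each of the 10 genes. Of all genes, 7.67% were higher and 1.21% lower without overlap as deposited, and 4.2% and 3.95% after scaling. limma called 0 of the 10 on TPM as deposited, where 1.11% of all genes were called, and 0 had an unadjusted p under 0.05, as 11.9% of all genes had. Their log2 fold changes lay between -0.47 (Gabarapl1) and 0.24 (Tfeb), and adjusted p in limma between 0.526 and 0.980. After scaling, limma again called 0 (1.22% of all genes), with 2 at an unadjusted p under 0.05, both lower with G108, as 5.59% of all genes were. These were Gabarapl1, with a scaled change of -0.60 (95% interval -1.18 to -0.017; limma, adjusted p = 0.424), and Atg7, at -0.20 (95% interval -0.39 to -0.015; limma, adjusted p = 0.388). Without mouse 4 of Vehicle SP, which is in neither group, the intervals were -1.01 to -0.19 (limma, adjusted p = 0.142) and -0.37 to -0.033 (limma, adjusted p = 0.229). limma-voom on the recovered reads also called 0 of the 10, with 2 at an unadjusted p under 0.05. Scaled Gabarapl1 measured 88.8, 87.1, 107.6 and 144 in the Vehicle HP mice and 87.2, 67.5, 48.5 and 78.5 in the G108 HP mice. The highest G108 mouse was just above the lowest vehicle mouse, so the groups overlapped by 1 mouse of each. Becn1 and Ulk1 lay closest to 0 after scaling, at 0.025 (95% interval -0.20 to 0.25) and 0.033 (95% interval -0.33 to 0.40).

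With G108, all 10 genes had lower TPM on HP than on SP, by log2 values from -0.22 (Tfeb) to -0.94 (Gabarapl1), and limma called 0 of the 10, as it called 0% of all genes. At an unadjusted p under 0.05, 7 of the 10 were lower, beside 44.6% of all genes. Ulk1 and Gabarapl1 did not overlap between the diets, a pattern of 20.5% of all genes. Ulk1 ran from 10.4 to 15.4 TPM on HP against 17.5 to 23.4 on SP (log2 difference -0.60, SE 0.16; limma, adjusted p = 0.0721). After scaling, limma called 0 (0% of all genes) with 0 at an unadjusted p under 0.05, beside 5.4% of all genes, and limma-voom gave 0 and 0. The scaled differences lay between -0.50 and 0.088, and Tfeb and Becn1 were above 0.

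With vehicle, the diets were not separated for 9 of the 10 genes. limma called 0 of the 10 (0% of all genes), with 1, Ctsl, higher at an unadjusted p under 0.05 on TPM as deposited, as were 2.74% of all genes. The count was again 0 after scaling (0% of all genes) and with limma-voom, with 1 at an unadjusted p under 0.05 each, and 1.85% of all genes were higher in that way after scaling. Ctsl was 0.74 higher on HP on the log2 scale (SE 0.31; limma, adjusted p = 0.727), since the 4 Vehicle HP mice, at 43.5 to 47.8 TPM, lay above the Vehicle SP mice, at 11.6 to 38.8 TPM, without overlap, as for 1.33% of all genes in that direction. This difference was 0.36 (95% interval -0.096 to 0.82) without mouse 4 of Vehicle SP. Scaled, the diet difference of Ctsl was 0.55 (95% interval 0.029 to 1.07) with overlapping groups, and it was 0.24 (95% interval -0.09 to 0.57) without mouse 4 of Vehicle SP.

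The interaction asks whether the change with G108 differed between the diets. All 10 interaction terms were below 0 on TPM as deposited, from -1.62 (Gabarapl1) to -0.23 (Tfeb), beside a median of -0.49 over all genes. limma called 0 of the 10 and 0% of all genes, with 8 of the 10 at an unadjusted p under 0.05, beside 47.7% of all genes in that direction. After scaling, limma called 0 with 2 at an unadjusted p under 0.05, Gabarapl1 (-0.98, 95% interval -1.80 to -0.16) and Sqstm1 (-0.54, 95% interval -1.07 to -0.0053), both with an adjusted p of 0.575 in limma, where 0% of all genes were called and 3.46% were lower at an unadjusted p under 0.05. Without mouse 4 of Vehicle SP the scaled terms were -0.67 (95% interval -1.27 to -0.065) for Gabarapl1 and -0.32 (95% interval -0.67 to 0.023) for Sqstm1, whose interval then spanned 0. limma-voom called 0, also with 2. Thus the calls on SP and their absence on HP did not amount to a difference between diets that passed the test. The 4 comparisons share groups with each other, and the terms of 1 gene are not independent.

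Ratios of 2 genes within a library do not depend on the scaling between libraries, and 4 were compared, in log2 TPM, by two-sided exact permutation tests on each diet (8 tests, smallest p possible 0.0286). Gabarapl1 over Map1lc3b, 2 branches of the Atg8 family, had log2 ratios of 3.50, 3.49, 3.47 and 3.81 in Vehicle HP and 3.34, 3.03, 2.99 and 3.24 in G108 HP. Every G108 HP mouse was below every Vehicle HP mouse, by a mean of 0.42 on the log2 scale (exact permutation p = 0.0286, the smallest possible; 0.229 after Benjamini-Hochberg adjustment over 8 tests). On SP the same ratio was 3.45 ± 0.06 with G108 and 3.24 ± 0.39 with vehicle (SD, n = 4 each; exact permutation p = 0.400), where mouse 4 of Vehicle SP had 2.69 and the other 3 had 3.33 to 3.60. Neither diet separated Ctsl over Lamp1, a luminal protease over a membrane protein, whose mean log2 ratio was 0.37 higher with G108 on SP (exact permutation p = 0.143) and 0.39 higher on HP (exact permutation p = 0.114). Map1lc3a over Map1lc3b was 0.16 higher on SP (exact permutation p = 0.286) and 0.30 higher on HP (exact permutation p = 0.143). The ratio of the initiation kinase Ulk1 to Becn1 was 0.19 higher on SP (exact permutation p = 0.286) and 0.01 higher on HP (exact permutation p = 0.971). After adjustment over the 8 exact permutation tests, p was 0.229 or higher for each ratio.

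In order of mean TPM, the 10 were Lamp1 (119.5), Gabarapl1 (93.3), Sqstm1 (71.1), Ctsl (51.3), Map1lc3a (23.7), Ulk1 (13.97), Map1lc3b (8.77), Becn1 (5.91), Atg7 (4.49) and Tfeb (1.89). The exon length used here covers all annotated exons of a gene, from 1181 bases for Map1lc3a to 7517 for Map1lc3b. The order thus depends on the annotation and may differ from that of transcript numbers. Each gene in this order was above the next in at least 14 of 16 mice, and Map1lc3b and Becn1 were the pair with the most exceptions. Lamp1 stood at percentile 96.1 of all genes tested and Tfeb at percentile 21.5. Lamp1, Sqstm1 and Ctsl ranked above Ulk1, Becn1, Atg7 and Tfeb in mean TPM. The Atg8 genes were spread over the order, from Gabarapl1 (93.3) to Map1lc3b (8.77).

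Likeness of pattern over the 16 libraries was measured as the root mean square difference of standardised scaled log2 values, for which the median distance of Lamp1 to all genes was 1.41. The nearest gene to Lamp1 was Cct2, a chaperonin subunit, at 0.17, the nearest to Ctsl was Gstm7, a glutathione transferase, at 0.23, and the nearest to Sqstm1 was Ahsg, a secreted liver glycoprotein, at 0.29. Becn1 was nearest to Pcid2 (0.32), Map1lc3b to Erlec1 (0.33), Gabarapl1 to Rab3ip (0.35), Atg7 to Pparg (0.40), Map1lc3a to Pgrmc2 (0.41), Tfeb to Inppl1 (0.46) and Ulk1 to Pcnt (0.50). Among the 10 themselves the closest were Map1lc3b and Gabarapl1, at 0.37, followed by Sqstm1 and Lamp1 at 0.38, whereas the nearest of the 10 to Tfeb was Becn1 at 0.76. Ranked among all genes by distance, Gabarapl1 was number 2 for Map1lc3b, and Map1lc3b was number 7 for Gabarapl1. Lamp1 was number 33 for Sqstm1, Sqstm1 was number 248 for Lamp1, and Becn1 was number 755 for Tfeb. These distances share libraries, of which mouse 4 of Vehicle SP was at an extreme for most of the 10, and are descriptions.

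The wider pathway was read from 11 lists of 129 genes, the 10 included, of which 125 passed the filter. On SP, G108 raised the TPM of 119 of the 125 and lowered 0 in limma (77% and 0.608% of all genes), with a median log2 fold change of 0.72 beside 0.60 for all genes. After scaling, 0 were called higher (1.33% of all genes) and 1 lower (1.39%), 22 had an unadjusted p under 0.05 (17.7% of all genes), and the median was 0.09 beside -0.01. Without mouse 4 of Vehicle SP, 106 were called higher as deposited (72.2% of all genes). After scaling without this mouse, 9 had an unadjusted p under 0.05 (13.7% of all genes), and the median was 0.040 beside -0.0015. On HP, limma called 0 of 125 both ways (at an unadjusted p under 0.05, 1 as deposited beside 11.9% of all genes and 13 scaled beside 11.3%), with medians of 0.03 beside 0.09 as deposited and -0.06 beside -0.0036 scaled. Between the diets with G108, limma called 0 as well, with 86 at an unadjusted p under 0.05 as deposited (45% of all genes) and 2 scaled (5.4%). With vehicle it also called 0, with 5 as deposited (3.16%) and 3 scaled (3.94%).

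By step of the pathway, the counts called higher on SP as deposited, where 77% of all genes were, stood at 4 of 5 genes of the ULK initiation complex, 8 of 8 of the nucleation complex, 14 of 15 of elongation and conjugation, 5 of 5 of the Atg8 family and 12 of 12 cargo receptors. They were 12 of 13 genes of autophagosome to lysosome fusion, 5 of 5 transcription factors, 8 of 9 lysosomal membrane proteins, 15 of 15 subunits of the vacuolar ATPase (the proton pump that acidifies the lysosome), 10 of 11 cathepsins and 26 of 27 other hydrolases and cofactors. The scaled medians on SP are given with the value without mouse 4 of Vehicle SP in brackets, and no difference between steps was tested. They were 0.061 (-0.050) for initiation, -0.065 (0.0070) for nucleation, -0.058 (-0.038) for conjugation, 0.21 (0.034) for the Atg8 family, 0.068 (-0.047) for cargo receptors and 0.018 (0.018) for fusion. The transcription factors had 0.18 (0.15), lysosomal membrane proteins 0.21 (0.040), the vacuolar ATPase 0.18 (0.095), cathepsins 0.14 (-0.0044) and the other hydrolases 0.17 (0.12). The medians of initiation, nucleation, cargo receptors and cathepsins changed sign without that mouse, and those of the Atg8 family and lysosomal membrane proteins were nearer to 0. On HP the scaled medians were -0.060 for initiation, -0.028 for nucleation, -0.063 for conjugation, -0.17 for the Atg8 family, -0.16 for cargo receptors and -0.0030 for fusion. They were 0.097 for the transcription factors, -0.18 for lysosomal membrane proteins, 0.0018 for the vacuolar ATPase, -0.26 for cathepsins and -0.059 for the other hydrolases. No member of a list other than Wipi1 was called after scaling in any of these comparisons.

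**Figure D4:**
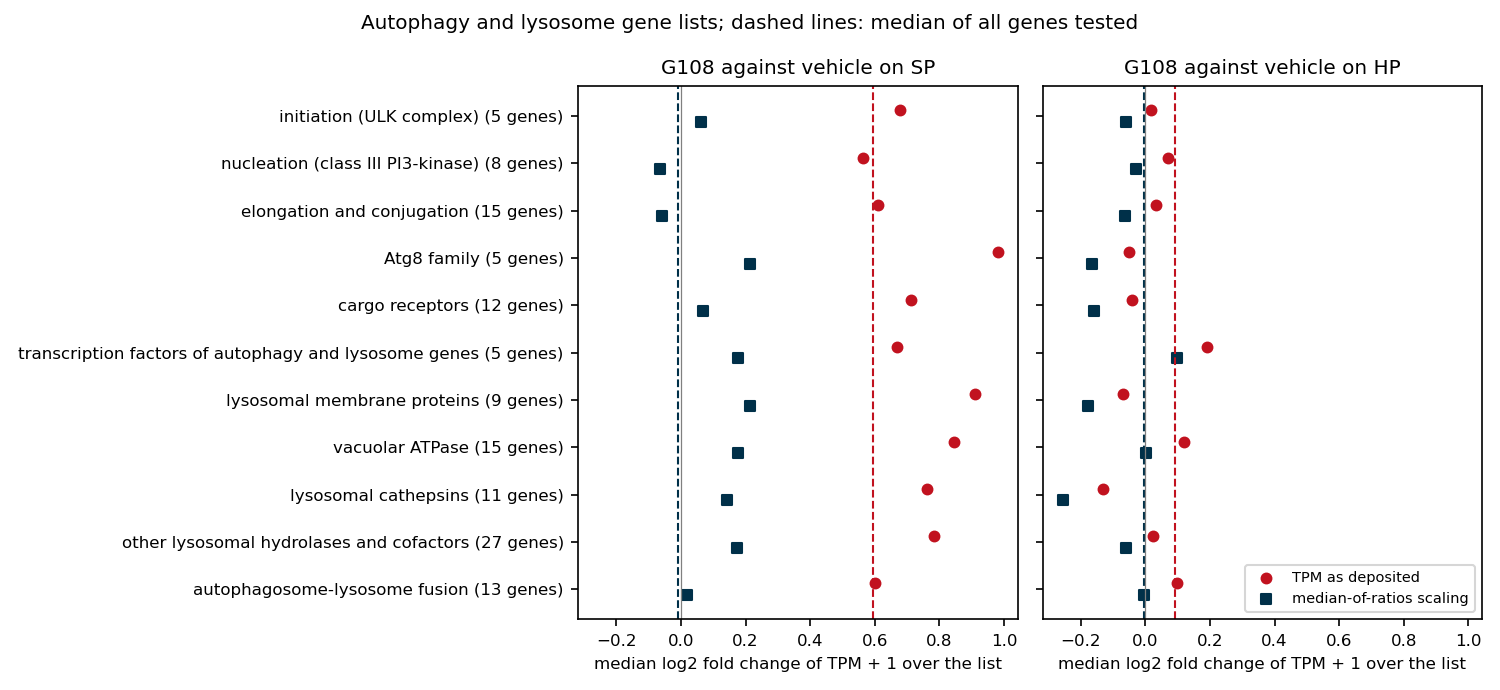
Median log2 fold change of TPM + 1 over each of the 11 gene lists (number of genes tested in brackets) with G108 against vehicle on SP (left) and on HP (right), from TPM as deposited (circles) and after median-of-ratios scaling (squares). Dashed lines mark the median of all genes tested. The deposited medians lie between 0.56 and 0.98 on SP and between -0.13 and 0.19 on HP, and the scaled medians between -0.26 and 0.21.

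Wipi1, chosen after its values were seen as the gene called after scaling, encodes a protein that binds phosphatidylinositol 3-phosphate on the forming autophagosome. Its TPM changed by 0.01 on the log2 scale with G108 on SP (limma, adjusted p = 0.971), while most genes rose. In scaled TPM the Vehicle SP mice measured 2.21, 2.58, 2.40 and 2.16 and the G108 SP mice 1.32, 1.35, 1.41 and 1.44. All 4 treated mice were below all 4 controls, as for 4.69% of all genes, by a log2 fold change of -0.49 (SE 0.11; limma, adjusted p = 0.0238). The call held in 11 of 16 fits that each left out 1 library and was lost without mouse 2 or 3 of Vehicle SP or mouse 2, 3 or 4 of G108 SP, with log2 fold changes of -0.52 to -0.45 and limma adjusted p of 0.00976 to 0.0737 over the 16. On HP the scaled values were 1.63, 2.20, 2.05 and 2.90 with vehicle and 1.41, 1.81, 1.57 and 1.18 with G108, a change of -0.35 (SE 0.11; limma, adjusted p = 0.168) with overlapping groups.

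The promoters of the 10 genes were examined for CACGTG, the E-box core within the element bound by TFEB, because Tfeb is one of the 10. Windows of 250 bases before the transcription start were available from RefSeq (GRCm38.p6) for 8 of the 10, all but Becn1 and Map1lc3a. CACGTG, a palindrome and so the same on both strands, lay in the windows of 3 of the 8, Lamp1, Atg7 and Ctsl. It lay in those of 6.86% of all genes with a window, and in 6.02% of all 32851 windows. Lamp1 held 4 copies, at 61, 45, 28 and 15 bases before the start, and 0.0213% of all windows held 4 or more. The windows of Lamp1, with the most copies, and of Gabarapl1, the gene with the most negative change on HP and no copy, are shown for comparison, 5′ to 3′ on the plus strand with CACGTG in capitals, at chr8:13158911-13159160 and chr6:129532942-129533191.
Lamp1: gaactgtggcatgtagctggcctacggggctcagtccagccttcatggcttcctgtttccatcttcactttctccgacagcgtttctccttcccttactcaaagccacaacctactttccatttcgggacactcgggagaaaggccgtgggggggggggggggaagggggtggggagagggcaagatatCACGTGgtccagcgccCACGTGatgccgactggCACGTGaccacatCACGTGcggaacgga
Gabarapl1: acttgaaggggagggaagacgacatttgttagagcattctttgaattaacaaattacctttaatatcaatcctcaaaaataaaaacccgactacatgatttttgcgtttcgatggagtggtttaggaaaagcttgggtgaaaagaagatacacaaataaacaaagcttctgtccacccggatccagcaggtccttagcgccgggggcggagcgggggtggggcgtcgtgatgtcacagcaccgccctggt
The Lamp1 window ends just before the first base of the annotated gene, and its copies lie in its last 61 bases. The RefSeq starts used for Atg7 and Ctsl lie inside the gene as annotated by GENCODE, by 27999 and 370 bases. The bases just after the Atg7 start matched no GENCODE transcript of Atg7, while those of Ctsl did match. The Atg7 window thus lies far from the annotated start of its gene. The single copies lie 132 and 236 bases before those RefSeq starts. Their distance from the start in use in liver was not determined.

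Over the pathway lists, 24 of the 104 genes with a window (23.1%) held CACGTG, among them Ctsa, Ctsd, Gaa, Gla, Mcoln1 and Atp6v1a, beside 6.86% of all genes with a window. The medians with and without a copy lay close together. On SP, the median scaled log2 fold change was 0.09 for 23 tested list genes with a copy and 0.10 for 77 without, and on HP it was -0.04 and -0.06. The cAMP response element TGACGTCA was in the windows of 0 of the 8 genes, of 2 of 104 list genes and of 1.77% of all genes. The forkhead core GTAAACA, searched on both strands, was in those of 0 of 8, 0 of 104 and 3.54%. A match is a description of these letters, not of binding.

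The 10 genes lie on 7 chromosomes of GRCm38. Lamp1 is at chromosome 8, 13159161 to 13175338 on the plus strand, Ctsl at chromosome 13, 64359337 to 64370890 on the minus strand, and Sqstm1 at chromosome 11, 50199366 to 50210827 on the minus strand. Exons of Sqstm1, Map1lc3b, Lamp1 and Ctsl share 580, 58, 249 and up to 1742 bases with other annotated genes, of which Grtp1, opposite Lamp1, had the highest mean at 37.9 TPM.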

How the data were processed

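Liver RNA-seq libraries of 16 mice, 4 per group, were compared. Per the labels and the study's methods, the authors checked reads with FastQC 0.11.8, aligned them to GRCm38 with HISAT2 2.0.5 and counted them per gene with featureCounts. The deposited values are TPM, which the authors computed from read counts and exon lengths, with no further scaling between libraries. The authors' DESeq2 results were not used here. Scaling every library to 1 total means that a shift in abundant transcripts moves the TPM of all other genes. Columns were assigned to mice by the sample descriptions, and no libraries held identical values (0% of genes in each of 120 pairs).

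GENCODE (GRCm38) supplied symbols, coordinates and exon lengths, and 55141 of 55487 IDs had a symbol. Reads per library were recovered from the steps of low TPM values, where 98.8% of 139184 values of up to 20 reads lay within 0.02 of a whole read. Median reads per library differed between groups, at 40.4 M in Vehicle SP, 37.2 M in Vehicle HP, 29.7 M in G108 SP and 31.2 M in G108 HP. The part of this difference in the results was not tested.

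The 11839 genes averaging 1 TPM or more were tested on log2(TPM + 1) with limma 3.58.1 in R 4.3.3, with 1 mean per group, a trend in the moderated variance and Benjamini-Hochberg adjustment. Ratios were compared with two-sided exact permutation tests by full enumeration in Python 3.11.15 with numpy 2.4.6. A fold change on log2(TPM + 1) understates the change of low genes. Intervals are 95% intervals of the moderated test. Median-of-ratios factors came from 11591 genes above 0 in all libraries. The scripts were tested on simulated data. The mice of a group are separate animals, and mouse numbers did not pair animals across groups.

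The 10 genes, the lists and the rule for named genes were chosen with earlier results of these data known. The rule names all 10 in every comparison, list genes called both on TPM as deposited and after scaling (there were 0), and the nearest gene of each by pattern. Alternatives were a pseudocount of 0.1, median-of-ratios scaling, no filter, a higher filter at a mean of 5 TPM, TPM over genes outside the mitochondrial genome, the mouse number as a block, a fit of only the 2 groups compared, array quality weights, voom on recovered reads and each library left out. Protein sequences were not used here.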

Additional observations from a re-analysis of the deposited data

Results flagged for a closer look

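In 2 of 56 groups of 4 values examined, 1 mouse lay far from the other 3, and chance alone flags about 1 in 20 such groups. Both came from mouse 4 of Vehicle HP. Its log2 ratio of Gabarapl1 to Map1lc3b was 3.81, where the other 3 mice had 3.47 to 3.50. Its log2 ratio of Ulk1 to Becn1 was 1.41, where the others had 1.01 to 1.06.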

How the results depend on the processing

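The 10 calls on SP on deposited TPM were kept in the following fits, given with the share of all genes called. These were a pseudocount of 0.1 (76.7%), no filter (32.7%), genes outside the mitochondrial genome (79.2%), only the groups compared (72.4%) and array weights (83.8%). Each library left out also kept the 10 calls (66.2% to 79% of all genes). The 8 of 8 genes left by a mean TPM of at least 5 were called (83.6% of all genes). The calls became 0 with median-of-ratios scaling (2.72% of all genes) and 0 with voom on recovered reads (2.96%). Without 1 library at a time, the scaled count on SP ranged from 0 to 1 (1 without mouse 1 of Vehicle SP, beside 3.48% of all genes). On HP the count stayed at 0 in every fit.

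For HP against SP with G108, where the count was 0, array weights gave 10 (71.8% of all genes called) and leaving out 1 library gave 0 to 7, with 3 without mouse 4 of Vehicle SP (14.5% of all genes), 4 without mouse 1 of G108 SP (25.5%) and 7 without mouse 4 of G108 HP (42.8%). For the interaction, array weights gave 10 (61.4% of all genes) and leaving out 1 library gave 0 to 9, with 7 without mouse 2 of Vehicle SP (29.2%), 6 without mouse 1 of G108 SP (33.7%) and 9 without mouse 4 of G108 HP (44%). The cause was not tested. With the mouse number as replicate block, the counts were 10 on SP (75.6% of all genes) and 0 in each of the other 4 comparisons. The block changed no call. The numbers belong to different mice in each group and did not pair them: 8 of 24 same-numbered pairs of libraries correlated above 0.1 in their deviations from the group means, with a median r of -0.03.

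Some log2 values turned sign. For Tfeb, Becn1 and Atg7, called higher at 0.47, 0.60 and 0.57 as deposited, G108 against vehicle on SP gave -0.047, -0.066 and -0.062 with median-of-ratios scaling and -0.064, -0.074 and -0.077 with voom. For Atg7, Map1lc3b, Sqstm1 and Lamp1 on HP, TPM over genes outside the mitochondrial genome gave 0.042, 0.10, 0.090 and 0.017. For Tfeb and Becn1, HP against SP with G108, -0.22 and -0.33 as deposited, gave 0.088 and 0.057 scaled and 0.12 and 0.068 with voom, and the interaction, -0.23 and -0.47 as deposited, gave 0.21 and 0.091 scaled and 0.30 and 0.10 with voom. For Tfeb, Ulk1, Becn1 and Map1lc3a, the diet difference with vehicle was -0.12, -0.10, -0.034 and -0.021 scaled and -0.18, -0.11, -0.036 and -0.018 with voom. By construction, scaling removes the shift of the middle gene.

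Leaving out 1 library at a time turned the sign of further small values. As deposited, the range on HP was -0.17 to 0.12 for Map1lc3b, -0.24 to 0.11 for Sqstm1 and -0.38 to 0.11 for Lamp1, with the ends set by mice 4 and 3 of G108 HP, and the diet difference with vehicle was -0.053 to 0.073 for Tfeb, -0.011 to 0.18 for Ulk1 and -0.11 to 0.34 for Map1lc3a. Scaled, the range on SP was -0.15 to 0.072 for Tfeb, -0.040 to 0.28 for Ulk1 and -0.13 to 0.059 for Becn1, with the ends set by mice 3 and 4 of Vehicle SP. Scaled on HP it was -0.034 to 0.092 for Ulk1, -0.0016 to 0.059 for Becn1 and -0.0057 to 0.19 for Map1lc3a. Scaled HP against SP with G108 gave -0.046 to 0.025 for Atg7 and -0.13 to 0.058 for Ctsl, and with vehicle -0.25 to 0.068 for Ulk1, -0.094 to 0.091 for Becn1 and -0.23 to 0.065 for Map1lc3a. The scaled interaction gave -0.24 to 0.073 for Ulk1, -0.033 to 0.15 for Becn1 and -0.32 to 0.0054 for Map1lc3a.

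For the log2 ratios on SP, the same step gave 0.032 to 0.34 for Gabarapl1 to Map1lc3b (lowest without mouse 4 of Vehicle SP), 0.069 to 0.23 for Map1lc3a to Map1lc3b (lowest without the same mouse), 0.097 to 0.31 for Ulk1 to Becn1 (lowest without mouse 1 and highest without mouse 4 of G108 SP) and 0.23 to 0.51 for Ctsl to Lamp1 (lowest without mouse 3 of Vehicle SP). On HP it gave -0.48 to -0.34 for Gabarapl1 to Map1lc3b, 0.17 to 0.36 for Map1lc3a to Map1lc3b (lowest without mouse 4 of Vehicle HP), -0.060 to 0.10 for Ulk1 to Becn1 and 0.32 to 0.52 for Ctsl to Lamp1. With 3 mice against 4 an exact permutation test cannot reach the p of the full set, so these carry values and not calls.

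The list medians without mouse 4 of Vehicle SP and the fits of Wipi1 without each library were chosen after seeing the data.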
